A study of Homo sapiens with 6 samples.

Results

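Collagen genes were examined in xenografts of MDA-MB-231, an established line of human breast cancer cells without hormone receptors, as every protein-coding gene whose symbol is COL, a number, A and a number. This rule gave 44 genes of the 60671 annotated genes in the matrix, and each was assigned to a structural class from general knowledge of the family. RNA-seq had been performed on 3 samples of tumor core (TC) and 3 samples of tumor margin (TM). The wild-type cells had been injected into the mammary fat pads of female NSG mice, which lack mature lymphocytes but keep fibroblasts, vessels and muscle, and according to the study's methods they were mixed with Matrigel, an extract of basement membrane. By the study's description both groups had the same cell line, host and injection, and the labels set them apart only by the zone dissected. The labels do not say which TC and TM samples came from one animal.

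Collagens are the main structural proteins of the extracellular matrix, and each is made of chains wound around each other into a helix. Fibrillar collagens (types I, III and V among them) pack into fibrils and are made mostly by fibroblasts. Type IV collagens form the mesh of basement membranes, and type VI collagens form beaded filaments near cell surfaces. FACIT collagens sit on the surface of fibrils, transmembrane collagens remain anchored in the plasma membrane, and multiplexins lie close to basement membranes.

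The values were TPM, a transcript level corrected for transcript length and scaled to the same total in each sample, so levels of different genes could be set side by side while sequencing depth was unknown. VIM, a mesenchymal filament gene and a listed marker of the cell line, was between 3797 and 5283 TPM. The estrogen receptor gene ESR1 was at most 0.13 TPM. Neither value by itself tells cells of the line from host cells. Of 6 luminal markers listed as absent in this line, PGR and CDH1 were also below 1 TPM. GATA3 and FOXA1 were at most 4.17 TPM, but KRT19, a keratin gene, was between 214 and 258 TPM. Across the 13861 tested genes, sample pairs correlated at 0.935 to 0.973, and the lowest values involved TM replicate 3. They were computed across genes, and genes do not stand in for replicates.

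Collagen transcript was led by different classes in different samples. Summed over the 44 genes, the 3 TC samples (replicates 1, 2 and 3, the order kept below) had 613, 876 and 776 TPM. The 3 TM samples, in the same order, had 1093, 1764 and 916 TPM. Every TM value lay above every TC value, although TM replicate 3 was only just above TC replicate 2. Whether this order holds under another scaling of the samples was not checked. The TM mean was 1257 ± 447 against 755 ± 133 (SD, n = 3). Fibrillar collagens made up 48.0% and 61.5% of this sum in TM replicates 1 and 2. They made up 13.7% in TM replicate 3 and 14.1%, 16.7% and 32.3% in the TC samples. In TM replicate 3 and in TC replicates 1 and 2, type VI was the leading class, at 47.7%, 36.9% and 43.8%.

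**Figure D1:**
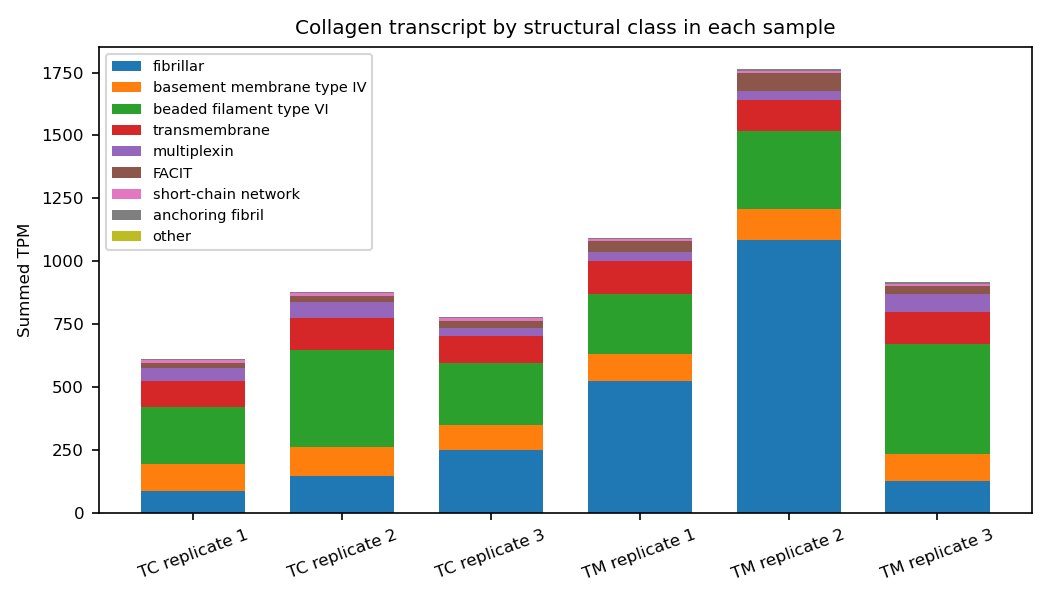
Summed TPM of the collagen genes in each of the 6 samples (bars start at 0), with colors for the structural classes. The fibrillar part reaches 1084 TPM in TM replicate 2 and 525 TPM in TM replicate 1, against 86.1 to 251 TPM in the other 4 samples, whereas the type IV part stays between 98.8 and 124 TPM.

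The fibrillar sum was 86.1, 146 and 251 TPM in TC and 525, 1084 and 125 TPM in TM. TM replicate 3 was thus within the TC range and the groups overlapped, although the TM mean was 3.59-fold the TC mean (578 ± 482 against 161 ± 83.5 TPM, SD, n = 3). The difference of the means, TC minus TM, was -416.9 TPM, and it was -163.7 TPM without TM replicate 2 and -643.4 TPM without TM replicate 3. The type IV sum was 108, 116 and 98.8 TPM in TC and 108, 124 and 108 TPM in TM, with means of 107 ± 8.44 and 113 ± 9.25 TPM (SD, n = 3). All other classes together were at 487 ± 111 TPM in TC and 566 ± 111 TPM in TM (SD, n = 3), a difference smaller than the spread between replicates.

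To compare the zones gene by gene, every gene that reached 1 TPM in 3 or more samples was fitted by limma on log2(TPM + 1), and p-values were adjusted over all 13861 genes that passed. Of the 44 collagen genes 20 passed, of which 19 were at 1 TPM or more in all 6 samples and COL6A3 in 5. After adjustment, 0 collagen genes passed 0.05 (0.137% of all tested genes did), and the smallest adjusted p by limma was 0.109. Before adjustment 6 were under 0.05, all lower in TC (14.2% of all tested genes were under 0.05 and lower in TC): COL27A1, COL5A1, COL7A1, COL12A1, COL3A1 and COL5A2. Differences are given as TC minus TM in log2(TPM + 1), and their median over the 20 genes was -0.46. Of the 20, 16 were lower and 4 higher in TC, while 67.0% of all tested genes were lower in TC. The median over all tested genes was -0.14, and 0.021 once the samples were rescaled by median of ratios. Of the 6 genes, 2 were then still below 0.05 (COL27A1 and COL5A1), joined by COL8A1, which was higher in TC. Leaving out 1 sample at a time gave between 2 and 7 genes at this threshold: 2 without TC replicate 1 or TC replicate 2, 3 without TM replicate 1 or TM replicate 2, and 7 without TM replicate 3. In bulk tissue, fewer cells of a type and less RNA per cell cannot be told apart.

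**Figure D2:**
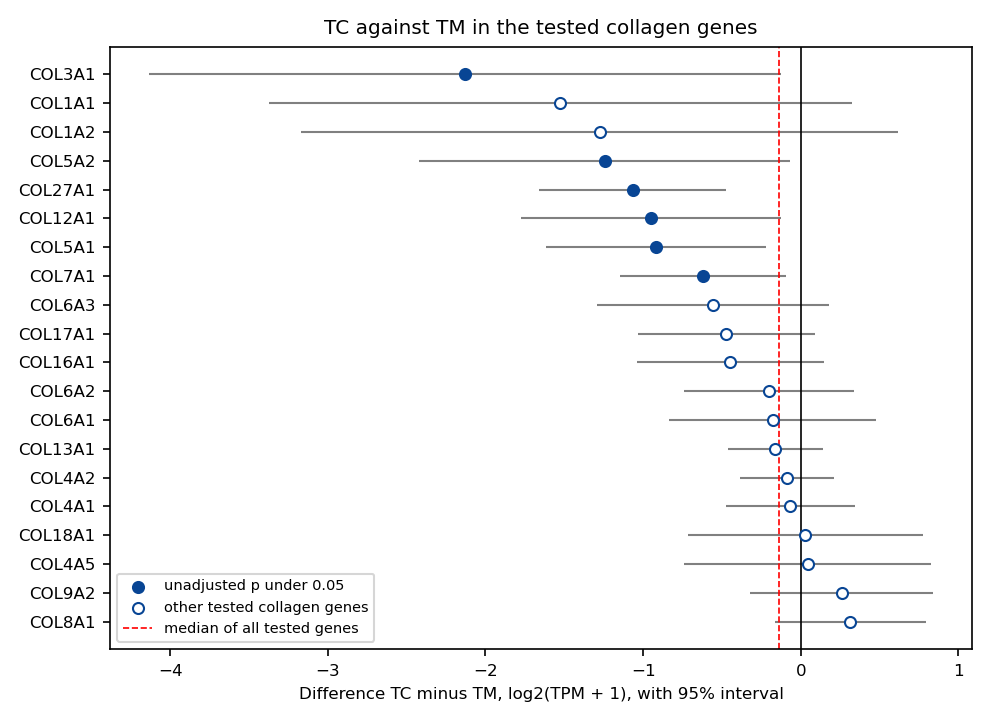
Log2(TPM + 1) difference between TC and TM (TC minus TM) for the 20 tested collagen genes (points) with 95% intervals of the limma fit (bars). Filled points are the 6 genes under 0.05 before adjustment, the dashed line is the median of all tested genes (-0.14), and the longest intervals belong to COL3A1, COL1A1 and COL1A2.

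Type I collagen, the main protein of fibrils, is built from the products of COL1A1 (ENSG00000108821, chromosome 17, 50183289 to 50201632) and COL1A2 (ENSG00000164692, chromosome 7, 94394561 to 94431232). COL1A1 was at 44.7, 83.8 and 160.9 TPM in TC and at 335, 698 and 62.9 TPM in TM. COL1A2 was at 15.3, 30.6 and 49.0 TPM in TC and at 95.2, 218 and 16.3 TPM in TM. In both genes TM replicates 2 and 1 were the highest samples, TC replicate 3 came next and TM replicate 3 was second lowest, so the groups overlapped. The log2 difference was -1.53 for COL1A1 (SE 0.81, limma adjusted p = 0.414) and -1.28 for COL1A2 (SE 0.83, limma adjusted p = 0.517). COL1A1 was between 2.74 and 3.85 times the level of COL1A2 in the 6 samples, while the highest value of each gene was 15.6 and 14.3 times its lowest.

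COL3A1 (ENSG00000168542, chromosome 2, 188974320 to 189012746) encodes type III collagen, which mixes into type I fibrils in soft tissue. It was at 2.04, 5.09 and 10.7 TPM in TC and at 35.5, 79.8 and 5.16 TPM in TM. Its highest value was 39.1 times its lowest, the widest range of the 20 genes, and TM replicate 3 lay within the TC range. The log2 difference was -2.13 (SE 0.87, limma unadjusted p = 0.0397, adjusted p = 0.281). COL1A1 was 15.0 to 21.9 times the level of COL3A1 in TC and 8.75 to 12.2 times in TM. This ratio was singled out after its values were seen and was not tested.

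Type V collagen is a minor chain set inside type I fibrils that sets their diameter. COL5A1 (ENSG00000130635, chromosome 9, 134641774 to 134844843) was at 13.7, 15.7 and 18.6 TPM in TC and at 27.8, 50.6 and 20.7 TPM in TM. The groups did not overlap, although TM replicate 3 was only just above TC replicate 3. The TM mean was 2.07-fold the TC mean (log2 difference -0.92, SE 0.30, limma adjusted p = 0.194). COL5A2 (ENSG00000204262, chromosome 2, 189031896 to 189225312), whose annotated span begins 19.2 kb beyond the end of COL3A1, was at 3.50, 5.39 and 8.14 TPM in TC and at 18.4, 26.7 and 5.52 TPM in TM. Its samples took the same order as those of COL3A1, and its log2 difference was -1.24 (SE 0.51, limma adjusted p = 0.284). COL5A3 was at most 0.02 TPM.

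COL12A1 (ENSG00000111799, chromosome 6, 75084326 to 75206051), a FACIT collagen that binds to type I fibrils, was the gene outside the fibrillar class that came closest to this pattern. It was at 14.5, 18.4 and 21.8 TPM in TC and at 37.8, 59.9 and 19.7 TPM in TM. The order of its samples was again that of COL3A1, with TM replicate 3 inside the TC range. Its log2 difference was -0.95 (SE 0.36, limma adjusted p = 0.250).

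**Figure D3:**
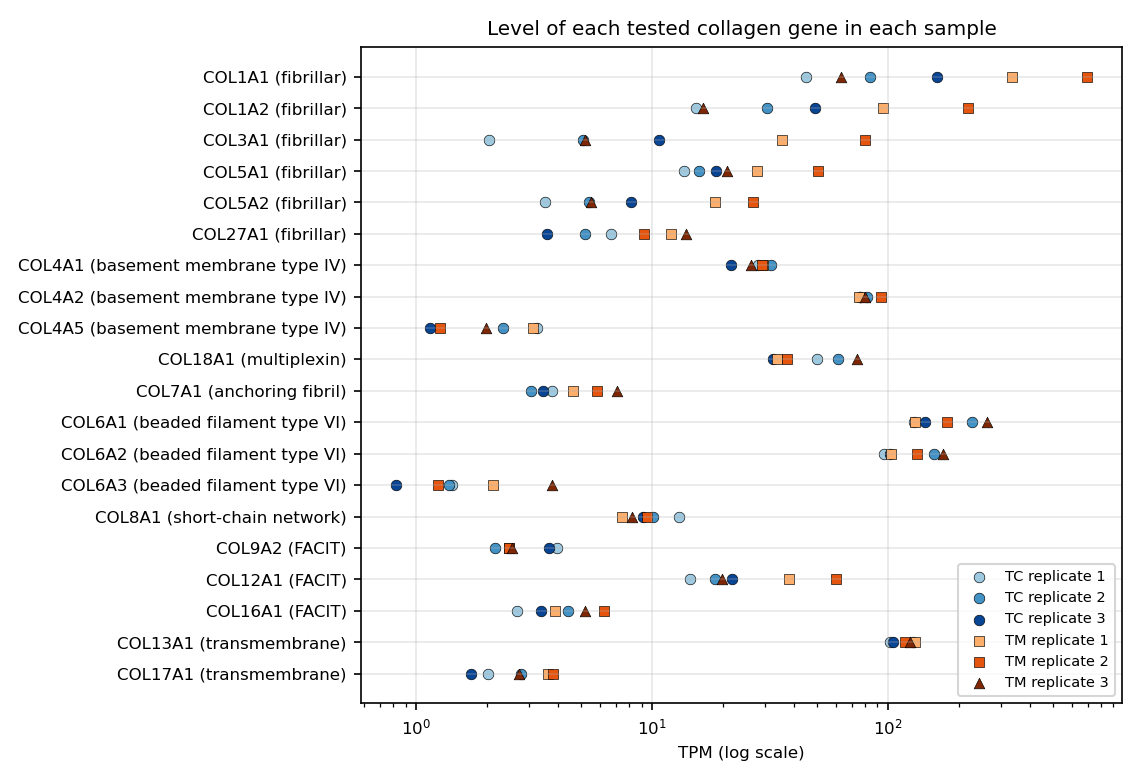
TPM (log scale) of the 20 tested collagen genes in each sample, with circles for TC, squares for TM replicates 1 and 2 and triangles for TM replicate 3. In COL1A1, COL1A2, COL3A1, COL5A1, COL5A2, COL12A1 and COL17A1 both squares lie to the right of all other points, whereas in COL4A1, COL4A2 and COL13A1 all 6 points lie together.

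In COL27A1 and COL7A1, neither of which passed after adjustment, the samples took another order. COL27A1 (ENSG00000196739, chromosome 9, 114155560 to 114312511), a fibrillar collagen known mainly from cartilage, was at 6.66, 5.17 and 3.59 TPM in TC and at 12.1, 9.24 and 13.9 TPM in TM. The groups did not overlap and TM replicate 3, low in the genes above, was the highest sample. Its log2 difference of -1.07 (SE 0.26, 95% interval -1.66 to -0.47) had the smallest p-value of any collagen gene (limma unadjusted p = 0.00317, adjusted p = 0.109).

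COL7A1 (ENSG00000114270, chromosome 3, 48564073 to 48595267) encodes the collagen of anchoring fibrils, which tie the basement membrane of epithelia to the tissue beneath. It was at 3.77, 3.07 and 3.44 TPM in TC and at 4.63, 5.85 and 7.11 TPM in TM. The groups did not overlap and TM replicate 3 was again the highest sample. The log2 difference was -0.62 (SE 0.23, limma adjusted p = 0.238). Its unadjusted p-value was no longer under 0.05 after quantile normalization or median-of-ratios rescaling, or without TC replicate 2, TM replicate 2 or TM replicate 3. COL3A1, COL5A2 and COL12A1 were no more stable. They too were not under 0.05 after either rescaling, or without TC replicate 1, TC replicate 2, TM replicate 1 or TM replicate 2. COL5A1, COL27A1 and COL7A1 were the 3 of 20 tested collagen genes whose groups did not overlap, all lower in TC. Of all tested genes 22.2% did not overlap in either direction and 18.9% did so with lower values in TC.

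The 150 bases before the start of the 4 genes below are given because COL5A1 and COL12A1 were highest in TM replicate 2 and COL27A1 and COL7A1 in TM replicate 3. They are from RefSeq on GRCh38.p14, written 5′ to 3′ on the strand of the gene and kept outside the exons of GENCODE v29. For COL7A1, on the minus strand, the window begins at 48595330, upstream of the GENCODE v29 gene start at 48595267. The bases checked after its RefSeq start were found in 0 GENCODE v29 transcripts of COL7A1, so this window rests on the RefSeq start alone. Capitals mark the GC box GGGCGG, the CCAAT box, and the TATA box letters TATAAA, on either strand, and no marked stretches overlap here.
COL5A1, chr9:134641624-134641773, plus strand: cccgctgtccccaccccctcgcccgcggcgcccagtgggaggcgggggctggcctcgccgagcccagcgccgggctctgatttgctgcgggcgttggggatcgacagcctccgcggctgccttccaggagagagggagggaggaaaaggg
COL12A1, chr6:75206054-75206203, minus strand: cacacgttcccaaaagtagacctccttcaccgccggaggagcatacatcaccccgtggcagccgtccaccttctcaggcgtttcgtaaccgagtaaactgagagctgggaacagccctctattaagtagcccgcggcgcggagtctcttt
COL27A1, chr9:114155387-114155536, plus strand: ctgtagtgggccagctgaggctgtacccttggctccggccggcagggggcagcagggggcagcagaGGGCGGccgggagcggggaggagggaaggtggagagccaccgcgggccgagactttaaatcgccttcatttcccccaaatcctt
COL7A1, chr3:48595330-48595479, minus strand: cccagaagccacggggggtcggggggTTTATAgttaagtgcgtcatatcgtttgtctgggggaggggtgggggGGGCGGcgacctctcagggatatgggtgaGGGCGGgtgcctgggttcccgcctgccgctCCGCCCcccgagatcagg
Neither COL5A1 nor COL12A1 held any of these letters, COL27A1 held GGGCGG once and COL7A1 held GGGCGG 3 times and TATAAA once, on the reverse strand. In windows of the same length before the starts of all 27305 genes in the table, 36.7% held GGGCGG, 24.4% CCAAT and 7.05% TATAAA on either strand. Among the 32 collagen genes with an entry, 15, 7 and 3 did. A match of letters describes the window and not the use of a site.

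Type IV collagen was the steadiest class. COL4A1 (ENSG00000187498, chromosome 13, 110148963 to 110307233) and COL4A2 (ENSG00000134871, chromosome 13, 110305812 to 110513209) encode the chains found in nearly all basement membranes. Both genes point away from each other, with RefSeq starts 127 bases apart. COL4A1 was at 28.1, 32.0 and 21.6 TPM in TC and at 29.5, 29.1 and 26.2 TPM in TM. COL4A2 was at 76.1, 81.1 and 75.9 TPM in TC and at 75.3, 93.5 and 79.7 TPM in TM. The groups overlapped in both, and the highest value was 1.48 and 1.24 times the lowest. The 95% interval of the log2 difference was -0.47 to 0.34 for COL4A1 and -0.39 to 0.21 for COL4A2 (limma adjusted p = 0.901 and 0.807), so that a change as large as the estimate of -1.53 for COL1A1 lay outside both. COL4A2 was 2.53 to 3.51 times the level of COL4A1. COL4A5 was lower, between 1.14 and 3.26 TPM, and differed by 0.044 in log2 (SE 0.34, limma adjusted p = 0.973), and COL4A3, COL4A4 and COL4A6 were at most 0.33 TPM.

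Type VI collagen had the highest mean of any class in TC (285 ± 86.1 TPM, SD, n = 3), although fibrillar collagens exceeded it in TC replicate 3. COL6A1 (ENSG00000142156, chromosome 21, 45981737 to 46005050) was at 129, 227 and 143 TPM in TC and at 130.2, 177 and 263 TPM in TM. COL6A2 (ENSG00000142173, chromosome 21, 46098097 to 46132849) was at 96.1, 156 and 102 TPM in TC and at 103, 132 and 170.4 TPM in TM. In both, TM replicate 3 and TC replicate 2 were the highest samples, and COL6A1 stayed between 1.26 and 1.54 times COL6A2. The log2 differences were -0.18 (SE 0.29, 95% interval -0.84 to 0.48, limma adjusted p = 0.819) and -0.20 (SE 0.23, 95% interval -0.74 to 0.34, limma adjusted p = 0.743). COL6A3 (ENSG00000163359), which encodes the chain that joins these to form the type VI molecule, was between 0.82 and 3.76 TPM, so that COL6A1 was 61.4 to 174 times its level. Its log2 difference was -0.56 (SE 0.32, limma adjusted p = 0.460).

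COL18A1 (ENSG00000182871, chromosome 21, 45405137 to 45513720), a multiplexin and the source of endostatin, lies on the same chromosome arm, and the span from its start to the end of COL6A2 is 728 kb. It was at 49.7, 61.2 and 32.6 TPM in TC and at 33.9, 37.2 and 73.8 TPM in TM. TM replicate 3 and TC replicate 2 were thus the highest samples in COL18A1 also, and its log2 difference was 0.029 (SE 0.33, limma adjusted p = 0.980). This pair of samples led in 3 of the 20 tested collagen genes, those 3, and in 4.88% of all tested genes. TM replicates 1 and 2 led in 7 of the 20, namely the 5 genes of types I, III and V, COL12A1 and COL17A1, and in 19.0% of all tested genes. Both patterns were noticed after the values had been seen and were not tested.

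COL13A1 (ENSG00000197467, chromosome 10, 69801867 to 69964275), a transmembrane collagen found at cell contacts, was among the most abundant and least variable members. It was at 101, 127 and 104 TPM in TC and at 129, 118 and 124 TPM in TM, and the groups overlapped. The log2 difference was -0.16 (SE 0.13, 95% interval -0.46 to 0.14, limma adjusted p = 0.611). COL17A1, the transmembrane collagen of hemidesmosomes, was between 1.70 and 3.81 TPM, and it differed by -0.47 in log2 (SE 0.25, limma adjusted p = 0.405).

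COL8A1, a short-chain network collagen of vessel walls, was at 9.11 to 12.97 TPM in TC and 7.42 to 9.47 TPM in TM, with the largest positive log2 difference of the 20 genes (0.31, SE 0.21, limma adjusted p = 0.529). The FACIT genes COL9A2 and COL16A1 were at 2.16 to 3.96 and 2.66 to 6.24 TPM over all samples, with log2 differences of 0.26 (SE 0.25) and -0.45 (SE 0.26) and limma adjusted p-values of 0.677 and 0.458.

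The other 24 collagen genes did not pass the filter and were not tested. COL2A1, COL6A6, COL9A1 and COL19A1 were listed at 0 in all 6 samples. COL11A2 and COL20A1 reached 1.07 and 1.21 TPM, in TM replicates 2 and 3, and the other 18 were below 1 TPM in every sample. By class, the untested genes were 5 of 11 fibrillar, 3 of 6 type IV, 2 of 5 type VI, 7 of 10 FACIT, 2 of 4 transmembrane, 2 of 3 short-chain network, 1 of 2 multiplexin and both others (COL26A1 and COL28A1).

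The samples with high fibrillar collagen also carried transcripts of other cell types, so the marker lists are given beside it. Summed over the 14 of 15 skeletal muscle markers found in the matrix, TC had 6.38, 8.45 and 4.63 TPM and TM had 199, 538 and 3.55 TPM. Of the 14, 13 were highest in TM replicates 1 and 2, against 19.0% of all tested genes. Only 3 of the 14 passed the filter, and 0 of these had a limma adjusted p-value under 0.05. Pericyte and smooth muscle markers were at 49.5 to 72.9 TPM in TC and at 189, 235 and 72.0 TPM in TM, most of it ACTA2, the smooth muscle actin gene (176, 218 and 66.5 TPM in TM). TM replicates 1 and 2, the samples with the most fibrillar collagen, therefore also had the highest sums of both lists. By these sums TM replicate 3 was within the TC range for fibrillar collagen and smooth muscle markers and below it for skeletal muscle markers. Within the smooth muscle list, TM replicates 1 and 2 led in 5 of 8 members (19.0% of all tested genes). CNN1 was at 1.11 to 1.27 TPM in TC and 0.57, 2.36 and 0.38 TPM in TM. KCNJ8 had the higher mean in TC (3.51 against 1.72 TPM), and MYH11 was at most 0.76 TPM. ACTA2 by itself was slightly higher in TM replicate 3 than in any TC sample (41.3 to 59.0 TPM). CSPG4 and MYH11 of the same list were also higher there, and its other members were not. The log2 difference of ACTA2 was -1.52 (limma unadjusted p = 0.00467, adjusted p = 0.126).

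The sums of fibroblast markers were closer together, at 44.9 to 66.5 TPM in TC and 80.5, 93.0 and 52.7 TPM in TM, with 7 of 15 below 1 TPM in every sample. FBN1 and CCDC80 made up most of each sum, at 18.8 to 27.3 and 17.1 to 34.1 TPM over all samples (limma adjusted p = 0.608 and 0.873). The TM mean was the higher one in 10 of the 15 fibroblast markers, a share near that of all tested genes (67.0% had a log2 difference lower in TC). Of the 6 markers that were tested, 2 were under 0.05 before adjustment and lower in TC (14.2% of all tested genes were). The 2 markers were FAP and PDGFRB, a receptor that pericytes also carry. PDGFRB was at 2.51, 2.50 and 2.58 TPM in TC and 3.45, 4.95 and 3.90 TPM in TM (limma adjusted p = 0.303). FBLN1, a matrix glycoprotein gene, was at 2.24, 2.64 and 5.63 TPM in TC and 7.72, 21.1 and 2.20 TPM in TM (limma adjusted p = 0.510), and POSTN, the periostin gene, was not tested and reached 1.93, 2.35 and 0.46 TPM in TM. TM replicates 1 and 2 were the highest samples in 4 of the 15, against 19.0% of all tested genes. Among the lowest members, PDGFRA was at most 0.3 TPM and LUM at most 0.38 TPM, and DCN was listed at 0 in 5 samples and at 4.82 TPM in TM replicate 1. Endothelial markers were at 29.1 to 35.1 TPM in TC and 31.8 to 45.1 TPM in TM. Macrophage markers were at 88.0 to 99.97 and 91.9 to 100.1 TPM, and adipocyte markers at 0.55 to 0.88 and 0.90 to 1.16 TPM. ESAM made up most of the endothelial sum (23.2 to 35.6 TPM over all samples) and CD68 most of the macrophage sum (84.8 to 94.2 TPM). Below 1 TPM in every sample were 5 of 10 endothelial and 5 of 8 macrophage markers. TM replicates 1 and 2 were the highest samples in 5 of the 10 and in 2 of the 8, against the same 19.0% of all tested genes. Among the tested macrophage markers, CSF1R was lower in TC without overlap (log2 difference -0.80, limma adjusted p = 0.314), while CD68 and AIF1 overlapped. The 9 markers of the cell line itself summed to 6362 to 7182 TPM in TC and 5986 to 7547 TPM in TM. The part of muscle and other host tissue in the collagen levels was not tested, and no step that parts mouse from human reads is described in the study's methods.

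**Figure D4:**
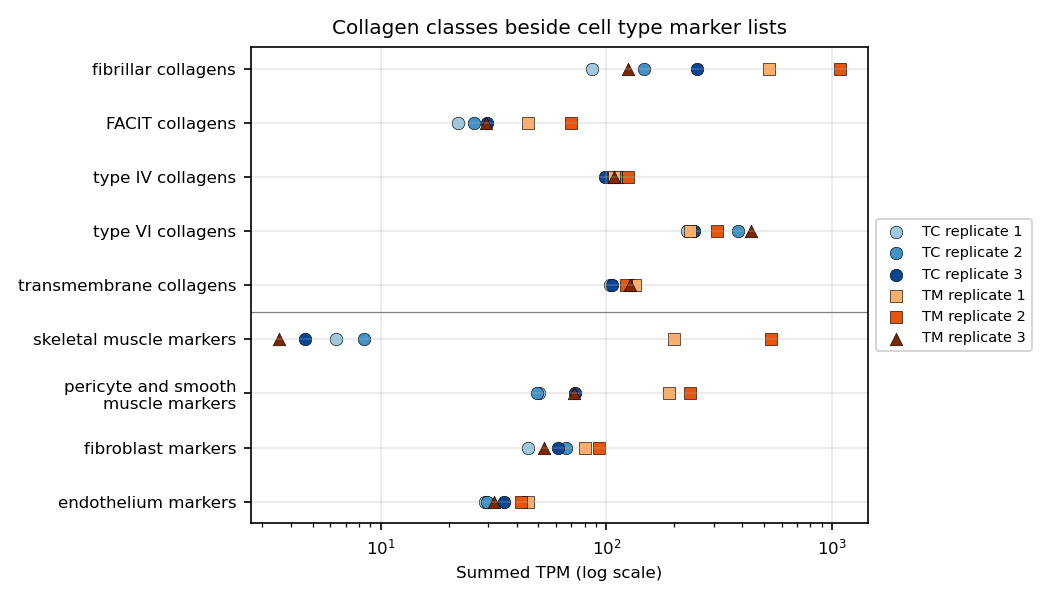
Summed TPM (log scale) of 5 collagen classes (above the line) and 4 cell type marker lists (below it) in each sample, with circles for TC, squares for TM replicates 1 and 2 and a triangle for TM replicate 3. Skeletal muscle markers reach 199 and 538 TPM in TM replicates 1 and 2 against 3.55 to 8.45 TPM elsewhere, and fibrillar collagens are highest in the same 2 samples.

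The genes that modify, export, process, bind and degrade collagen were then described from lists of 79 genes, of which 57 were tested. By limma 0 passed 0.05 after adjustment and 5 before it, all lower in TC (14.2% of all tested genes). The median log2 difference was -0.14, as it was over all tested genes. Among 14 tested prolyl and lysyl modifying enzymes 2 were below 0.05 unadjusted. PLOD3, a lysyl hydroxylase, was at 71.7, 82.2 and 80.0 TPM in TC and 104.8, 107 and 96.7 TPM in TM, without overlap (log2 difference -0.40, SE 0.12, limma adjusted p = 0.168). P3H1, a prolyl 3-hydroxylase, was at 40.9 to 45.0 TPM in TC and 47.4 to 57.0 TPM in TM, also without overlap (log2 difference -0.33, SE 0.14, limma adjusted p = 0.289). PPIB, a prolyl isomerase and the most abundant of this list, was at 1051 ± 198 TPM in TC and 997 ± 99.5 TPM in TM (SD, n = 3).

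Of 11 tested folding and export genes 0 were below 0.05 unadjusted, and the most abundant, the collagen chaperone gene SERPINH1, was at 134, 235 and 162 TPM in TC and 221, 264 and 218 TPM in TM (log2 difference -0.44, SE 0.20, limma adjusted p = 0.348). BMP1, which removes the C-propeptide of fibrillar procollagens, was the 1 of 4 tested processing genes below 0.05. It was at 14.8, 19.1 and 23.3 TPM in TC and 28.6, 63.3 and 23.2 TPM in TM (log2 difference -0.86, SE 0.35, limma adjusted p = 0.281), in the same order of samples as COL3A1. LOXL1, a cross-linking oxidase, was the 1 of 5 tested in its list. It was at 46.9, 44.5 and 62.9 TPM in TC and 107, 151 and 52.5 TPM in TM (log2 difference -0.89, SE 0.35, limma adjusted p = 0.259), again highest in TM replicates 2 and 1. TGM2, a transglutaminase and the most abundant gene of this list, was at 125 ± 19.1 TPM in TC and 149 ± 34.6 TPM in TM (SD, n = 3).

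FAP, a fibroblast activation protease, was the 1 of 6 tested degrading enzymes below 0.05, at 0.62, 1.37 and 1.97 TPM in TC and 2.98, 3.55 and 2.51 TPM in TM (log2 difference -0.83, SE 0.29, limma adjusted p = 0.210). MMP14, a membrane-bound collagenase and the most abundant of them, was at 448 ± 43.9 and 534 ± 103 TPM (SD, n = 3). Of 6 tested collagen receptors and 11 tested fibril partners 0 were below 0.05. The integrin subunit gene ITGB1, the most abundant receptor, was at 299 ± 64.7 TPM in TC and 262 ± 51.6 TPM in TM, and FN1, the fibronectin gene, was at 803 ± 481 and 731 ± 420 TPM (SD, n = 3). In all, 15 of the 57 genes were highest in TM replicates 1 and 2, against 19.0% of all tested genes.

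The differences of the type I, III and V genes and of COL12A1 depended on which TM sample was kept. Without TM replicate 3 the log2 difference was -2.50 for COL1A1 and -3.18 for COL3A1, and without TM replicate 2 it was -0.77 and -1.32. COL5A1 ranged from -1.19 to -0.57 and COL12A1 from -1.36 to -0.58 over the 6 fits that each left out 1 sample. COL27A1 ranged from -1.24 to -0.87 and COL7A1 from -0.75 to -0.49, in a narrower band. COL1A1, COL3A1, COL5A1, COL12A1, COL27A1 and COL7A1 all kept the same sign in every one of these fits. Without both TM replicates 1 and 2, a fit chosen after the data were seen in which TM replicate 3 stands alone and is assumed to vary as TC does, COL1A1 and COL1A2 were at 0.42 and 0.77, COL3A1 at -0.037, and COL27A1 and COL7A1 at -1.31 and -0.88. None of these fits gave a collagen gene an adjusted p-value under 0.05 (limma).

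**Figure D5:**
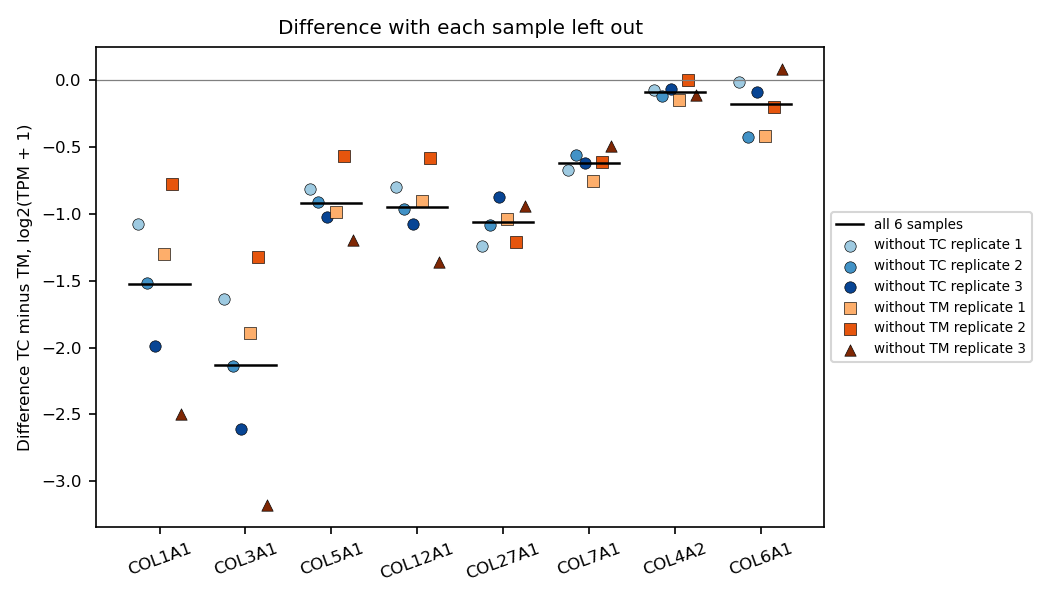
Log2(TPM + 1) difference between TC and TM (TC minus TM) for 8 collagen genes, with all 6 samples (black line) and with each sample left out (points). COL1A1 moves from -2.50 to -0.77 and COL3A1 from -3.18 to -1.32, while COL27A1 and COL7A1 stay between -1.24 and -0.87 and between -0.75 and -0.49.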

How the data were processed

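RNA of 3 TC and 3 TM samples had been sequenced in pairs from TruSeq libraries. The authors trimmed reads with SeqPrep and Sickle, aligned them with HISAT2, assembled transcripts with StringTie, quantified genes with RSEM and deposited TPM per gene. The submitters' processing notes name the hg38 build, while the annotation release is not given in the sources used here. TPM keeps no depth, so a count model such as the DESeq2 of the study could not be run, and precision was judged from the replicates alone. Deposited columns summed to 1000000, except 994381 in TM replicate 3. Of 60930 rows, 259 assembled loci were left out. Symbols were found for 60401 genes, and positions and gene types are from GENCODE v29 (GRCh38).

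TC and TM were compared by limma 3.58.1 (R 4.3.3) on log2(TPM + 1) over the 13861 genes that reached 1 TPM in 3 or more samples. The two-sided test used a mean-variance trend, no covariates and with Benjamini-Hochberg adjustment. This scale understates changes of low genes. The study gives 3 mice per group for this experiment, while the labels tie no sample to an animal, so p-values measure the spread between these samples. The fit was tested on simulated data. The collagen, pathway and marker lists were chosen with earlier results of these data known. All tested collagen genes are named. Of each pathway list the members with an unadjusted p-value under 0.05 and the most abundant member are named. Figures were drawn with matplotlib 3.10.9. Alternatives were a pseudocount of 0.1, no filter, a mean TPM of 5 or more, quantile normalization, median-of-ratios rescaling, removal of mitochondrially encoded genes, a replicate block, empirical Bayes without a trend or robust, and leaving out each sample.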

Additional observations from a re-analysis of the deposited data

How the results depend on the processing

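The number of collagen genes called remained 0 under all 16 alternatives (limma), and 12 of the 20 tested collagen genes kept their direction under each alternative that gave them a value. The number at an unadjusted p-value under 0.05, 6 in all samples, was 3 after quantile normalization and 3 after median-of-ratios rescaling, and 2 to 7 when 1 sample was left out. COL4A1 reversed to 0.11 after quantile normalization, and after median-of-ratios rescaling COL4A1, COL4A2, COL6A1 and COL13A1 reversed to 0.11, 0.092, 0.00060 and 0.016. Removal of mitochondrially encoded genes turned COL18A1 to -0.020. Among fits that left out 1 sample, COL18A1 ranged from -0.18 to 0.37, COL4A5 from -0.18 to 0.32, COL4A1 from -0.19 to 0.086, COL4A2 from -0.15 to 0.0035 and COL6A1 from -0.42 to 0.084. Without TM replicates 1 and 2 (chosen after seeing the data) COL1A1, COL1A2, COL18A1 and COL4A1 reversed to 0.42, 0.77, -0.66 and 0.038, and TC minus TM in summed TPM was 36.1 for fibrillar collagens (-417 in all samples, -643.4 to -163.7 when 1 sample was left out) and -195.7 for the classes other than fibrillar and type IV (-79.2 in all samples). The type IV sum differed by -6.13 TPM, and by 7.33 after median-of-ratios rescaling. The cause of these changes was not tested.

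Over all tested genes, 19 were called. The number was 7 with a pseudocount of 0.1, 1 without a filter, 4 after quantile normalization, 6 after median-of-ratios rescaling, 12 without a trend, 47 with robust moderation, 1 to 17 when 1 sample was left out and 195 without TM replicates 1 and 2. With the replicate block 1 gene was called and 4 collagen genes had an unadjusted p-value under 0.05. Deviations of same-numbered samples correlated at 0.21, -0.12 and -0.16, which does not meet the limit set for pairing (above 0.1 in every pair). Another matching, picked after the values were seen, was above the limit in every pair. It joined TC replicates 1, 2 and 3 to TM replicates 1, 3 and 2 (0.21, 0.15 and 0.32). This matching was not used as a block and was not tested. Whether TC and TM samples came from the same animals remains unknown. TPM carries no read counts, so depth limits on low genes could not be given.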

Other observations

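Loci with collagen-derived names that the rule leaves out, because they are antisense, divergent or pseudogene loci, carried little signal. The pseudogene COL6A4P2 reached 0.42, 0.08 and 0.28 TPM in the TM samples and was 0 throughout TC. Of the other 9 such loci the highest value was 0.14 TPM (COL6A2-DT in TM replicate 3).

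SPARC, which encodes a collagen-binding matrix protein, BGN, a small proteoglycan of fibrils, and MMP2, a gelatinase, were picked after their values were seen. SPARC was at 160.2, 319 and 413 TPM in TC and 684, 1348 and 218 TPM in TM. BGN was at 11.03, 35.6 and 60.1 TPM in TC and 109, 187 and 29.1 TPM in TM, and MMP2 was at 2.73, 5.80 and 13.6 TPM in TC and 32.7, 60.8 and 4.70 TPM in TM. In all 3 genes the samples took the order seen in COL1A1 and COL1A2, from TM replicate 2 down to TC replicate 1, and the limma adjusted p-values were 0.448, 0.375 and 0.389.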
